A study of Homo sapiens with 12 samples.

Results

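The cyclic AMP (cAMP) phosphodiesterases studied here are the 10 human genes of the families PDE3 (PDE3A, PDE3B), PDE4 (PDE4A, PDE4B, PDE4C, PDE4D), PDE7 (PDE7A, PDE7B) and PDE8 (PDE8A, PDE8B). They were taken by symbol, each with 1 Ensembl identifier, from 58174 identifiers in the mRNA-seq tables. U87 and U118 are established glioblastoma cell lines, and temozolomide (TMZ) is the alkylating drug given to glioblastoma patients. In each line, control cells, which the sample labels call sensitive, were compared with aggregation cells, labelled resistant. The latter came from cells exposed to TMZ at 50 μM. According to the study, both kinds of cells came from CD133-CD15- sorted cells kept with BMP2. It reports that aggregations arose, after weeks of TMZ or later, from the subset of drug-exposed cells that began to divide again. The comparison is thus not one of short drug exposure, and a group can descend from few cells. Each of the 4 groups had 3 libraries, so that 12 were analysed. The labels do not say whether the 3 were separate cultures, so every p-value measures the spread between these libraries, which may be technical.

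cAMP is made by adenylate cyclases at the membrane when receptors coupled to the stimulatory G protein are engaged, and it acts through protein kinase A (PKA), EPAC exchange factors and POPDC proteins. Phosphodiesterases are the enzymes that break it down, and because single enzymes are tethered near single receptors and kinases they decide where in a cell cAMP can reach. PDE3 enzymes also bind cGMP, which slows their action on cAMP. PDE4 is the large rolipram-sensitive family that PKA itself can activate, while PDE7 and PDE8 are not sensitive to rolipram and PDE8 has a very high affinity for cAMP.

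Values are TPM, a transcript level corrected for gene length and set to one common total per library, so that levels of different genes can be set side by side. TPM keeps no read counts, so sequencing depth is unknown and errors are the spread between libraries. A gene entered a test if it reached 1 TPM in at least 3 libraries. It was called higher or lower at a Benjamini-Hochberg adjusted p under 0.05, over all genes tested, and a difference of at least 1 in log2(TPM + 1), a scale that understates the change of genes near 1 TPM. All adjusted p-values are from limma.

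Several properties of the libraries touch the results. Over 16382 genes, Spearman's rho between U118 aggregation and U118 control libraries lay between 0.808 and 0.839, whereas against the 6 U87 libraries it lay between 0.895 and 0.913, so the U118 aggregation libraries stood closer to the other cell line than to their own controls. Whether the cells are of the labelled line was not tested. The share of TPM from mitochondrially encoded genes was 12.9% to 16.9% in U87 control, 22.2% to 23.7% in U87 aggregation, 7.42% to 19.7% in U118 control and 13.2% to 29.9% in U118 aggregation libraries. U118 aggregation replicate 1 stood apart from replicates 2 and 3, with 15193 genes at 1 TPM or more against 13270 and 13545. The median difference of all genes tested was -0.24 in U87 and -0.52 in U118, which median-ratio scaling of the libraries brought to -0.01 and -0.02. In U118 that scaling turned 1341 genes called higher and 4134 lower into 2337 and 1981, and in U87 it turned 419 and 1078 into 663 and 543. In bulk libraries, fewer cells of a type and less RNA per cell cannot be told apart. As for the labelled cell type, VIM and CD44, which glioma lines and mesenchymal cells share, were at 4425 TPM or more and at 311.4 TPM or more in every library, whereas the glial genes GFAP and S100B stayed at or under 0.693 and 0.281 TPM.

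PDE genes are transcribed from several promoters, and cAMP can act back on a gene through CREB, which binds the cAMP response element (CRE). From the RefSeq promoter table (GRCh38.p14), 32 start sites of 8 of the 10 genes were kept. No start site of PDE3B or PDE7A is among those kept, so the member counts leave these genes out. The shares of all promoters are over the whole table and were not narrowed to match. Whether sites of PDE3B or PDE7A would change the member shares was not tested. In the 250 bases before each start, the full CRE (TGACGTCA, the same on both strands) was found at 1 of the 32 sites, and it occurs in 1.65% of the 35116 promoters of the table. The short element (TGACG or, on the other strand, CGTCA, both of which each full CRE holds) was found at 4 of the 32, or 12.5%, against 21.2% of all promoters. A match describes letters only and does not show a bound site. The windows of 3 genes are given here because they hold the full element (PDE7B), the most short elements (PDE4A) and none (the first start of PDE4B, whose 6 windows all lacked both), and capitals mark the elements. They lie at chr6:135851451-135851700, chr19:10416523-10416772 and chr1:65792260-65792509, each on the plus strand, and are written 5′ to 3′.
PDE7B: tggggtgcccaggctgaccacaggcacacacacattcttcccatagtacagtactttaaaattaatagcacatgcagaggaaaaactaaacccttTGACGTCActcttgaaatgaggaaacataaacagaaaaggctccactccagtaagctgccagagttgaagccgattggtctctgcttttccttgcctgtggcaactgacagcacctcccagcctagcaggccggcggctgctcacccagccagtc
PDE4A: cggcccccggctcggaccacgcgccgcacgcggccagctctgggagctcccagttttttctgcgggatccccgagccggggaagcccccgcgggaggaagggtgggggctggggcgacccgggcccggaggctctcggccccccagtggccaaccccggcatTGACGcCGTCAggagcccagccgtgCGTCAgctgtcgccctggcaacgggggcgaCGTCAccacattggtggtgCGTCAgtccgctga
PDE4B: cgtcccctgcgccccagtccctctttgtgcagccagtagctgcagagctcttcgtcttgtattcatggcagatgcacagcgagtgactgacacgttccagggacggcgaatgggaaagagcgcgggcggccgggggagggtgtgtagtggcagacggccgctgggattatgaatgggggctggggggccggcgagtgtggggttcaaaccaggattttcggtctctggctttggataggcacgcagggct
The CRE of PDE7B starts 155 bases before its transcription start. The 5 short elements of PDE4A start 88, 82, 63, 33 and 14 bases before its first start, and the others found were single ones, in 1 window of PDE4C and 1 of PDE4D.

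In control cells the cell lines differed in which phosphodiesterase mRNAs they held. U87 cells held chiefly PDE8A, and U118 cells held PDE4A, PDE4B, PDE7A and PDE8A together, all between 12.1 and 23.2 TPM. Summed over the 10 genes, the level was 33.7 ± 8.27 TPM in U87 control and 74.4 ± 6.03 TPM in U118 control libraries (SD, n = 3 each). The tables of the lines were made apart from each other, so levels across lines are given side by side and were not tested.

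PDE8A (ENSG00000073417, GRCh38 chromosome 15, 84980440 to 85139145) encodes a high-affinity enzyme of the PDE8 family. It took 65.3% to 68.9% of the summed level in U87 control and 24.9% to 28.6% in U118 control libraries. PDE4A (ENSG00000065989, chromosome 19, 10416773 to 10469631), a PDE4 enzyme with forms that bind membranes, was at 0.304, 0.462 and 0.274 TPM in U87 control and at 12.1, 18.3 and 13.7 TPM in U118 control libraries. PDE3A (ENSG00000172572, chromosome 12, 20369245 to 20684381), the PDE3 enzyme of heart and platelets, was at a listed value of 0 throughout the 6 U87 libraries and at 1.47, 1.45 and 1.61 TPM in U118 control. These genes thus had no overlap between the control libraries of the lines, except for PDE8A, whose levels overlapped while its shares did not.

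PDE3B (ENSG00000152270, chromosome 11, 14643723 to 14872044), the PDE3 enzyme best known from fat cells, was listed at 0 in 10 of the 12 libraries and reached 0.0182 TPM at most. Every one of 88 ribosomal protein and housekeeping genes looked at was above 1 TPM in all libraries. PDE8B (ENSG00000113231, chromosome 5, 77210449 to 77429807), a PDE8 enzyme known from endocrine tissues, stayed between 0.215 and 0.688 TPM in all 12. PDE4C (ENSG00000105650, chromosome 19, 18208652 to 18248200) was at 0 to 0.167 TPM in U87 and at 0.0254 to 1.05 TPM in U118 libraries.

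**Figure D1:**
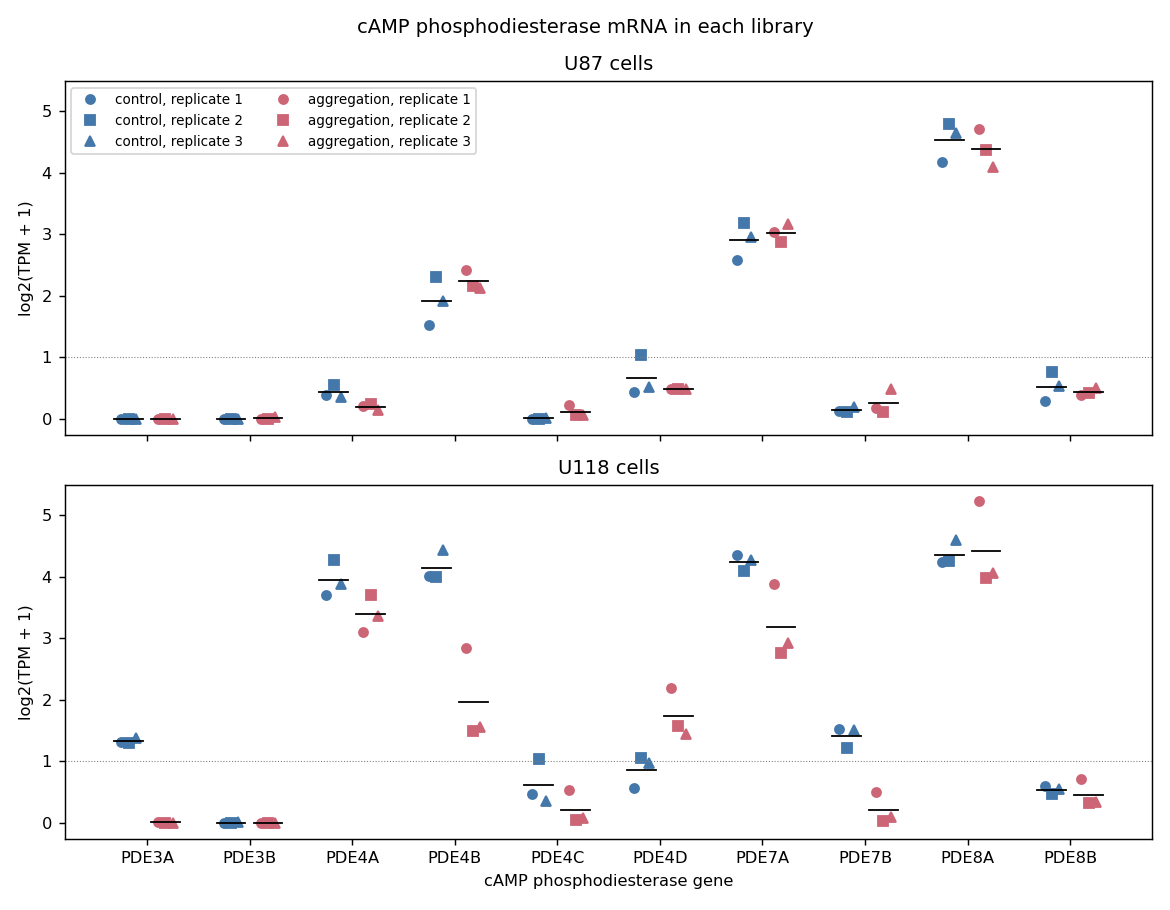
Level of each of the 10 genes in each library as log2(TPM + 1), control in blue and aggregation in red, with a marker shape per replicate, a black line at the group mean and a dotted line at 1 TPM. PDE4B, PDE7A, PDE7B and PDE3A of U118 aggregation cells lie below all 3 controls, and PDE4D lies above them, at 1.71 to 3.56 TPM against 0.480 to 1.07 TPM.

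In U87, aggregation cells were compared with control cells to ask whether TMZ-derived cells hold other phosphodiesterase mRNAs. Of the 10 genes, 3 passed the level filter (PDE4B, PDE7A and PDE8A, in all 6 libraries) and 7 did not. None of the 3 was called by limma, and none had an unadjusted p under 0.05. Over all 13845 genes, 3.03% were called higher and 7.79% lower. No tested gene had groups that did not overlap, which held for 13.6% (higher) and 39.8% (lower) of all genes.

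PDE4B (ENSG00000184588, chromosome 1, 65792514 to 66374579), the PDE4 enzyme that curbs cAMP in immune cells and brain, was at 1.87, 3.94 and 2.79 TPM in U87 control and at 4.36, 3.45 and 3.37 TPM in U87 aggregation libraries. The groups overlapped through control replicate 2, the highest of the controls. The difference was 0.32 (95% interval -0.22 to 0.86, limma adjusted p = 0.303). PDE7A (ENSG00000205268, chromosome 8, 65717510 to 65842322), the PDE7 enzyme of T cells and many tissues, was at 5.0, 8.10 and 6.77 against 7.21, 6.31 and 8.03 TPM. Its groups overlapped fully, with a difference of 0.12 (interval -0.34 to 0.58, adjusted p = 0.664). PDE8A was at 17.0, 26.9 and 24.1 against 25.1, 19.6 and 16.0 TPM, again overlapping, with a difference of -0.15 (interval -0.67 to 0.37, adjusted p = 0.620). This sign turned under median-ratio scaling, to 0.10. The intervals lie within 1 on the log2 scale in both directions. Over the alternatives the differences ranged from 0.12 to 0.52 for PDE4B (0.12 without control replicate 1, 0.51 without control replicate 2, and 0.52 with an adjusted p of 0.0593 under median-ratio scaling), from -0.0439 to 0.35 for PDE7A and from -0.34 to 0.10 for PDE8A.

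Below the filter, PDE4A was lower in every U87 aggregation library, at 0.152, 0.183 and 0.108 TPM against 0.304, 0.462 and 0.274 TPM in control. The groups did not overlap, but all 6 values were under 1 TPM, and with no filter its difference of -0.23 had an adjusted p of 0.0867 by limma. PDE4C was at 0, 0 and 0.00833 TPM in control and at 0.167, 0.0465 and 0.0425 TPM in aggregation libraries (difference 0.11, adjusted p = 0.217 with no filter). PDE4D (ENSG00000113448, chromosome 5, 58969038 to 60522120), a PDE4 enzyme that arrestins recruit to receptors, was at 0.354, 1.05 and 0.433 against 0.404, 0.405 and 0.396 TPM, so that control replicate 2 alone was above the rest. PDE7B (ENSG00000171408, chromosome 6, 135851696 to 136195574), a PDE7 enzyme known from brain, was at 0.0830 to 0.146 TPM in control and at 0.0727 to 0.395 TPM in aggregation libraries.

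In U118 the same comparison gave 4 genes called lower and none called higher, of 7 that passed the filter. Over all 15527 genes, 26.6% were called lower and 8.64% higher. PDE3A and PDE7B passed the filter only through the control libraries, where they are high, and PDE4D mainly through the aggregation libraries, so the 4 of 7 is not a measure of the group as a whole. Among the 4 genes at 1 TPM or more in all 6 libraries (PDE4A, PDE4B, PDE7A, PDE8A), 2 were called lower. Every aggregation library was below every control library for 4 of the 7 genes and above for 1, against 42.9% and 15.7% of all genes.

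PDE4B had the largest difference of the 10 genes on the log2(TPM + 1) scale. With a pseudocount of 0.1 its difference was -2.54, smaller in size than that of PDE3A (-3.96) and PDE7B (-3.01). PDE4B was at 15.2, 15.0 and 20.6 TPM in U118 control libraries and at 6.21, 1.81 and 1.93 TPM in aggregation libraries. The groups did not overlap, and aggregation replicate 1 was the closest to the controls. On the log2 scale PDE4B fell by 2.19 (standard error 0.38, 95% interval -3.04 to -1.34, limma adjusted p = 0.00142). Relative to the median of all genes it was -1.67. Without aggregation replicate 1 the difference was -2.63, and under median-ratio scaling it was -1.74 (adjusted p = 0.00116). Over that gene's alternatives the adjusted p ranged from 2.88e-07 to 0.0153. PDE4B therefore kept its call under every setting tried.

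PDE4A, of the same family, was at 12.1, 18.3 and 13.7 TPM in control and at 7.63, 12.1 and 9.31 TPM in aggregation libraries. Here the groups touched, with the highest aggregation library at the level of the lowest control. The difference of -0.56 (interval -1.15 to 0.04) did not pass the test (limma adjusted p = 0.105). Relative to the median of all genes it was -0.03, and under median-ratio scaling also -0.03.

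PDE4D had higher values in aggregation cells. It was at 0.480, 1.07 and 0.963 TPM in control and at 3.56, 1.98 and 1.71 TPM in aggregation libraries, with no overlap and replicate 1 the highest. Its difference of 0.87 (standard error 0.25, interval 0.31 to 1.44, adjusted p = 0.0174) passed the p threshold and not the fold threshold. Relative to the median of all genes it was 1.40. With median-ratio scaling the difference was 1.17 (adjusted p = 0.00105), and with mitochondrial genes left out of the TPM it was 1.05 (adjusted p = 0.00614), both called. With no filter its adjusted p was 0.0814, and without control replicate 1, 2 or 3 it was 0.111, 0.0508 or 0.0606, so that leaving out any control lost the p threshold. In these libraries PDE4D was thus the one gene of the 10 with higher values in every U118 aggregation library.

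PDE4C, the 4th gene of the family, was at 0.379, 1.05 and 0.274 TPM in U118 control and at 0.443, 0.0254 and 0.0561 TPM in aggregation libraries. The groups overlapped through aggregation replicate 1, and the gene was not tested. With no filter its difference was -0.40 (adjusted p = 0.269).

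Both PDE7 genes had lower values in U118 aggregation cells. PDE7A was at 19.6, 16.0 and 18.4 TPM in control and at 13.8, 5.77 and 6.6 TPM in aggregation libraries. The groups did not overlap, but replicate 1 was nearer to the controls than to replicates 2 and 3. PDE7A fell by 1.05 (standard error 0.32, interval -1.77 to -0.33, limma adjusted p = 0.0219). Relative to the median of all genes it was -0.53. The difference was -0.54 (adjusted p = 0.0469) under median-ratio scaling and -0.89 (adjusted p = 0.0228) without mitochondrial genes, both short of the fold threshold. Its adjusted p was 0.0653 with no filter and, when 1 library was left out, between 0.000329 and 0.0791. The call ended without control replicate 1 (0.0711), control replicate 3 (0.0731), aggregation replicate 2 (0.0693) or aggregation replicate 3 (0.0791), while without aggregation replicate 1 the difference was -1.40.

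PDE7B was at 1.89, 1.31 and 1.86 TPM in control and at 0.410, 0.0246 and 0.0677 TPM in aggregation libraries. All 3 aggregation libraries were under 1 TPM and all 3 controls above it, so that the gene entered the test only through the group in which it is high, and its p does not stand as independent support. On this scale PDE7B fell by 1.21 (standard error 0.19, limma adjusted p = 0.000944), and with a pseudocount of 0.1 in place of 1 by 3.01. It stayed called under every setting in which it passed the filter. When a control library was left out it no longer reached 1 TPM in 3 libraries.

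PDE3A, at 1.47, 1.45 and 1.61 TPM in U118 control, was at 0.00982 TPM in aggregation replicate 1 and listed at 0 in replicates 2 and 3. It fell by 1.32 on the log2(TPM + 1) scale (standard error 0.15, limma adjusted p = 0.000120). That value depends on the pseudocount and is no estimate of the fold, since 2 of the 3 libraries are at 0, and PDE3A too entered the test only through the controls. As for PDE7B, leaving out a control library took the gene below the filter. PDE3B was at 0 in 5 of the 6 U118 libraries and was not tested, and in the aggregation libraries of both lines the PDE3 genes reached 0.0182 TPM at most.

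In the PDE8 family, PDE8A was at 17.9, 18.1 and 23.2 TPM in U118 control and at 36.6, 14.9 and 15.8 TPM in aggregation libraries. Replicate 1 was above all controls and replicates 2 and 3 were below them, so the group mean describes none of the 3. The difference of 0.07 (interval -0.71 to 0.84, limma adjusted p = 0.884) became -0.34 (adjusted p = 0.125) without replicate 1. PDE8B was at 0.507, 0.383 and 0.455 against 0.642, 0.253 and 0.260 TPM, with the same order of the replicates, and was not tested.

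**Figure D2:**
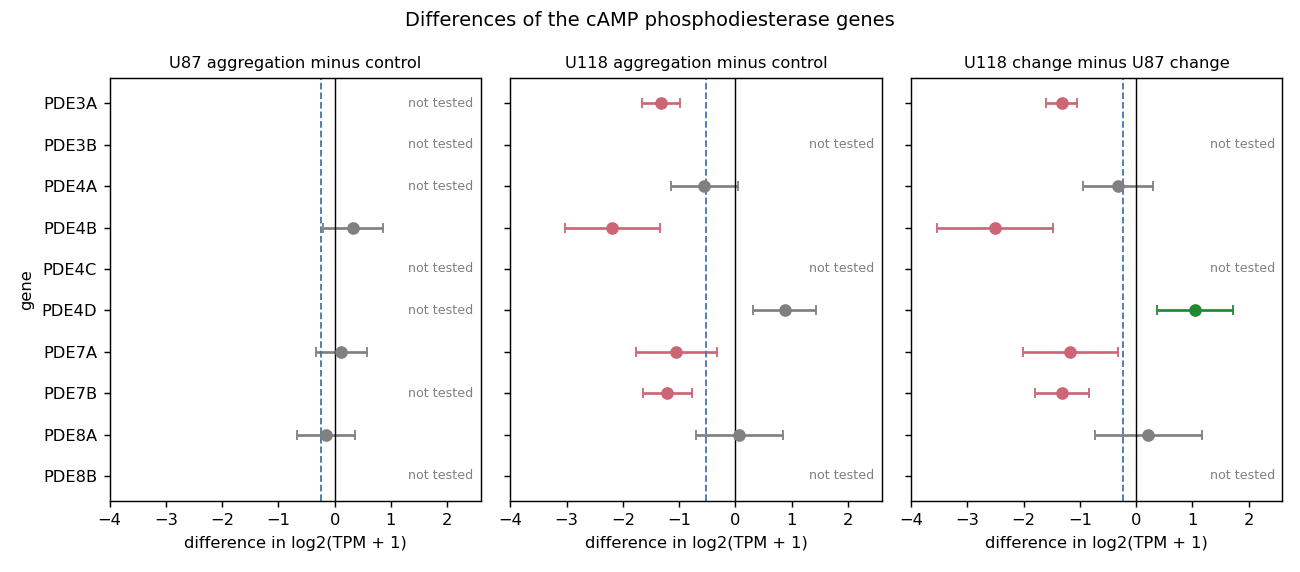
Difference in log2(TPM + 1) with its 95% interval for the genes tested in U87, in U118 and between the changes of the lines, red where called lower, green where called higher and grey where not called, with a dashed line at the median of all genes. In U118 PDE4B lies at -2.19, far from the line at -0.52, and the intervals of PDE4A, PDE7A and PDE8A span it.

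Where markers of other cells moved with these results, they were as follows. The summed level of the 3 fibroblast markers (DCN, LUM, COL1A1) was 443.7 to 464.5 TPM in U118 control and 107.6 to 240.4 TPM in U118 aggregation libraries, and 39.1 to 42.4 and 93.9 to 107.8 TPM in U87 control and aggregation. DCN fell to 0.224 to 1.06 TPM in U118 aggregation cells from 32.9 to 39.6 TPM. The 3 smooth muscle and pericyte markers (RGS5, MYH11, ACTA2) went the other way, with 6.26 to 8.03 TPM in U118 control and 115.2 to 132.5 TPM in U118 aggregation libraries, nearly all of it ACTA2, and 245.2 to 351.0 TPM in U87. Of the 4 immune markers, PTPRC, AIF1 and CD3E were at or near 0 everywhere and only CD68 was high, and the endothelial (PECAM1, VWF, CDH5), epithelial (EPCAM, CDH1, KRT5) and neuronal (RBFOX3, SNAP25, SYT1, SLC17A7) lists summed to at most 1.2, 1.72 and 16.0 TPM. The glial and glioma list (10 genes) summed to 4803 TPM or more in all libraries. VIM makes up most of that sum in every library, so the sum says little about the rest of the list. Among its genes, PDGFRA was at 71.8 to 88.3 TPM in U118 control and at 0.0716 to 0.105 TPM in U118 aggregation libraries. Other genes of this list went up, and under median-ratio scaling 2 were called higher and 1 lower in U118. The part of such differences between the cells in the PDE results was not tested.

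The difference between the lines was tested as an interaction over all 12 libraries, which asks whether the change on aggregation, taken within each line's own table, differed between U118 and U87. Of the 10 genes 7 were tested, 4 called with a lower change in U118 and 1 with a higher one, and over all 16382 genes 18.5% and 12% were called in these directions. The change of PDE4B was 2.51 lower in U118, a difference of -2.51 (standard error 0.48, limma adjusted p = 0.00120), and it was called under all settings in which it was tested. For PDE3A and PDE7B the differences were -1.32 (limma adjusted p = 4.29e-06) and -1.32 (adjusted p = 0.000442), with U87 levels at or near 0 in both groups. PDE3A was listed at 0 in every U87 library, so its difference is the U118 change itself. Neither gene had room for a fall of that size in U87, so these p-values are not independent support that the lines differ. Both genes were tested only because the U118 control libraries are above 1 TPM, and PDE4D mainly through U118 aggregation, so the count of calls is not support for a difference of the group as a whole. PDE4D had 1.05 (adjusted p = 0.0181). It was not called with no filter (adjusted p = 0.0574) or without U118 control replicate 1 (0.90, adjusted p = 0.0646). Without U87 control replicate 2 (0.86) or U118 aggregation replicate 1 (0.82) it fell short of the fold threshold. PDE7A had -1.17 (adjusted p = 0.0326), and its call was lost under median-ratio scaling (-0.94, short of the fold threshold), with no filter (adjusted p = 0.0648) and when any of 8 single libraries was left out. PDE4A (-0.33, adjusted p = 0.394) and PDE8A (0.22, adjusted p = 0.728) were not called.

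Set beside U87, the U118 aggregation libraries held some of the genes near U87 levels and others not. PDE4B at 1.81 to 6.21 TPM, PDE7B at 0.0246 to 0.410 TPM and PDE3A at 0 to 0.00982 TPM lay around the ranges of the U87 libraries, which were 1.87 to 4.36, 0.0727 to 0.395 and 0 TPM. PDE4A at 7.63 to 12.1 TPM stayed far above the U87 range of 0.108 to 0.462 TPM. PDE4D at 1.71 to 3.56 TPM was above both U118 control and U87, where it reached 1.05 TPM at most. These are levels from separate tables, without a test.

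The make-up of the summed phosphodiesterase mRNA is a ratio within a library, which scaling cannot move. In U118 control libraries PDE4 genes made up 40.5%, 48.8% and 43.8%, PDE7 genes 30.9%, 23.8% and 25.0%, PDE8 genes 26.5%, 25.4% and 29.2%, and PDE3 genes 2.12%, 1.99% and 1.99%. In U118 aggregation libraries PDE8 genes made up 53.7%, 41.0% and 44.9% and PDE7 genes 20.5%, 15.7% and 18.7%. PDE8 shares were higher in all aggregation libraries than in any control and PDE7 shares lower, without overlap. Shares add up to a fixed total, so a higher share need not be a higher level. PDE8A itself was at 36.6, 14.9 and 15.8 TPM in aggregation libraries, against 17.9 to 23.2 TPM in control.

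PDE4 shares overlapped, at 25.7%, 43.2% and 36.4% in U118 aggregation. Within them the shares of single genes differed. PDE4B went from 20.7% to 25.4% of the sum in control to 4.91% to 8.95% in aggregation libraries, and PDE4D from 0.691% to 1.47% up to 4.80% to 5.39%. PDE4A held 16.9% to 25.2% in control and 11.0%, 32.9% and 26.1% in aggregation libraries, so that it was the PDE4 gene with most mRNA in all 3 aggregation libraries, whereas control replicates 1 and 3 held more PDE4B. These shares are descriptions with no test, and 3 libraries against 3 could not reach an exact permutation p below 0.1.

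In U87, PDE8 genes held 69.3%, 66.9% and 70.2% in control and 67.2%, 65.6% and 57.1% in aggregation libraries. PDE4 genes held 10.2%, 13.2% and 10% in control and 13.4%, 13.4% and 13.6% in aggregation libraries. The latter were just above the highest control.

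The summed level was 69.5, 72.7 and 81.1 TPM in U118 control and 69.4, 36.8 and 35.7 TPM in U118 aggregation libraries. Replicate 1 was at the level of the lowest control, and the other two were below all controls. Under median-ratio scaling the sums overlapped, at 54.6 to 67.9 in control and 47.5 to 61.3 after aggregation. In U87 the sums were 24.8, 41.2 and 35.0 TPM in control and 37.9, 30.4 and 28.8 TPM in aggregation libraries.

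**Figure D3:**
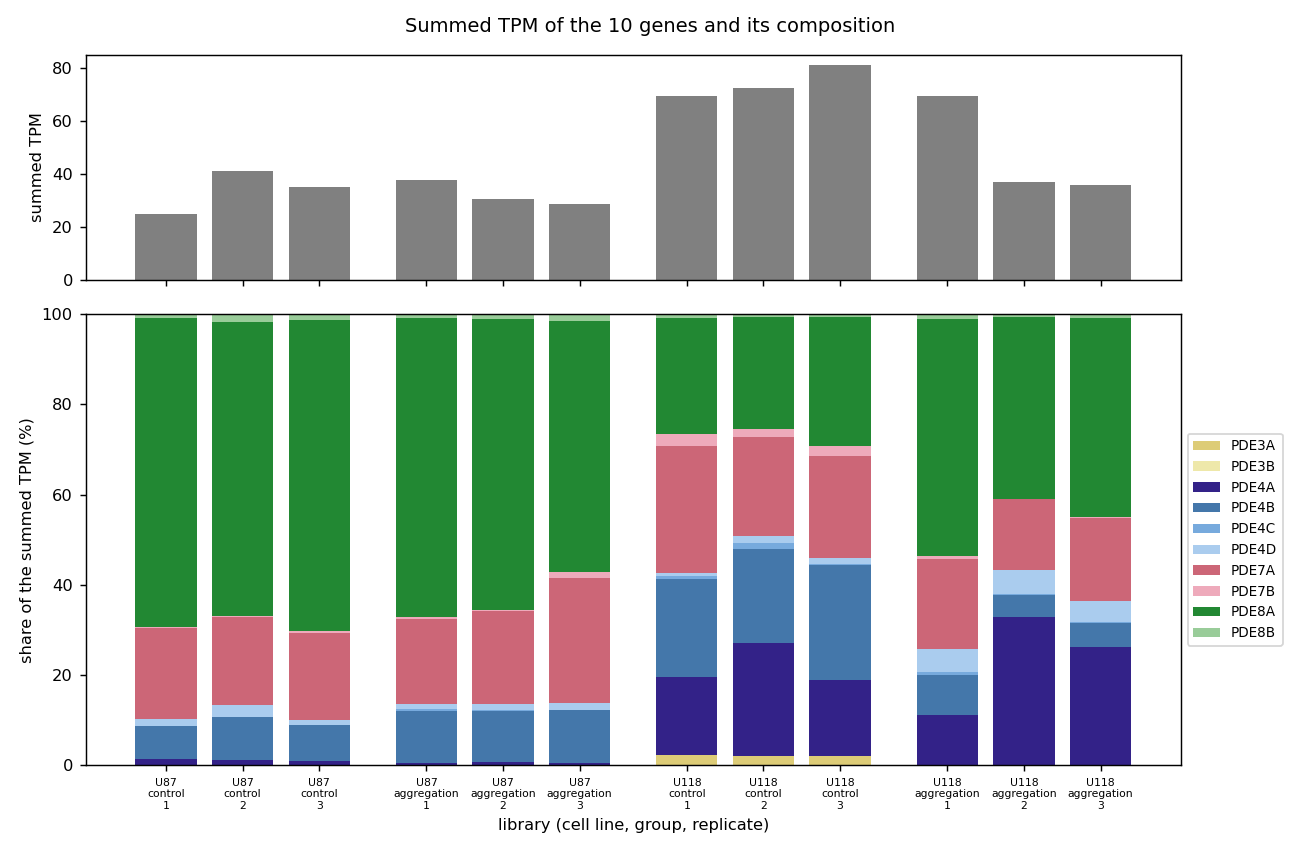
Summed TPM of the 10 genes in each library (upper bars) and the share of each gene in it (lower bars, %). PDE8A (dark green) takes 55.7% to 68.9% in U87 libraries, and in U118 it widens from 24.9% to 28.6% in control to 40.3% to 52.8% in aggregation libraries while PDE4B (mid blue) narrows. The PDE8A level in TPM was above the U118 controls in aggregation replicate 1 only.

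The enzymes that make cAMP were set beside those that break it down. The 10 adenylate cyclase genes (ADCY1 to ADCY10) summed to 135.1, 167.9 and 133.6 TPM in U118 control and to 59.4, 46.0 and 52.1 TPM in U118 aggregation libraries. The ratio of cyclase to phosphodiesterase mRNA, which no scaling moves, was 1.95, 2.31 and 1.65 in U118 control and 0.856, 1.25 and 1.46 in U118 aggregation libraries. All aggregation libraries were below all controls. In U87 it was 5.82, 2.99 and 3.91 in control and 3.27, 3.56 and 4.20 in aggregation libraries, which overlap.

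U118 had 6 testable cyclases, with 2 calls higher and 4 lower (2 higher and 1 lower after median-ratio scaling). Over all genes tested in U118, 8.64% were called higher and 26.6% lower (15.2% and 12.9% after that scaling). U87 had 5, with 1 call lower (none after that scaling). The median difference of the cyclases was -1.34 in U118 and -0.53 in U87, beside -0.52 and -0.24 for all genes. ADCY8, a calcium-stimulated cyclase of the brain, was at 59.1 to 77.7 TPM in U118 control and at 12.5 to 18.3 TPM in aggregation libraries. It fell by 2.08 (limma adjusted p = 0.000107). ADCY7, a cyclase of blood cells, rose by 2.48 from 0.105 to 0.519 TPM up to 4.08 to 7.43 TPM. The 2 cyclases called higher in U118, of which ADCY7 is 1, reached 1 TPM only in the aggregation libraries. They entered the test through that group, so their calls do not stand as independent support.

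Among the G protein alpha subunits that act on cyclases, 6 of 7 were tested in U118 and 1 was called lower. This was GNAS, the stimulatory subunit, at 775.8 ± 73.6 TPM in control and 360.5 ± 87.8 TPM in aggregation libraries (SD, n = 3 each). The call was lost under median-ratio scaling (-0.57, adjusted p = 0.183). In U87 none of 5 was called.

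Of the 15 receptors that raise cAMP, 7 were tested in U118. PTGER2, a receptor of prostaglandin E2, fell by 1.39 (not called under median-ratio scaling, at -0.93), and ADORA2A, an adenosine receptor, rose by 2.12, from 0.124 to 1.55 TPM up to 4.74 to 8.02 TPM. ADORA2A entered the test mainly through the aggregation libraries. In U87 none of 4 was called.

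Phosphodiesterases outside the 10 also differed in U118. PDE5A, the cGMP enzyme that sildenafil inhibits, was at 13.5 to 20.7 TPM in control and at 0.18 to 0.847 TPM in aggregation libraries, and fell by 3.70 (limma adjusted p = 8.42e-06). PDE1C, a calcium-activated enzyme for both nucleotides, fell by 2.30, from 3.24 to 4.73 TPM to 0 to 0.0146 TPM. PDE2A, which cGMP stimulates to break down cAMP, rose by 1.19, from 1.30 to 1.71 TPM up to 3.44 to 5.76 TPM. PDE5A, PDE1C and PDE2A were the tested genes of the 6 dual-substrate and 5 cGMP enzymes in U118. PDE5A and PDE1C reached 1 TPM only in the control libraries, through which they entered the test. Their calls and the p of PDE5A therefore do not stand as independent support, and their differences depend on the pseudocount. In U87 only PDE2A was tested, with a difference of -0.50 that was not called.

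All 9 PKA subunit and inhibitor genes were tested in both lines. In U118, PRKACB, a catalytic subunit, fell by 1.49 (-1.0 and not called under median-ratio scaling), PKIG, an inhibitor of that subunit, fell by 1.70, and PKIB, another inhibitor, rose by 1.79 from 5.27 to 6.0 TPM up to 14.5 to 43.5 TPM. In U87 the inhibitor PKIA rose by 1.15. The regulatory subunits PRKAR1B and PRKAR2A had lower values in all U87 aggregation libraries, with differences of -0.98 and -0.93 (limma adjusted p = 0.000907 and 0.00708) that fell just short of the fold threshold. Of the other cAMP effectors, 4 of 5 were tested in each line. POPDC3, a membrane protein that binds cAMP, rose by 3.24 in U118, from 4.05 to 7.08 TPM up to 43.3 to 72.0 TPM, and RAPGEF3, the exchange factor EPAC1, rose by 1.08 in U87, from 0.983 to 2.05 TPM up to 4.41 to 4.89 TPM.

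Proteins that hold phosphodiesterases in place were looked at as partners (13 genes, 11 tested in each line) and A-kinase anchoring proteins (17 genes, 14 tested in U118 and 13 in U87). In U118, SLFN12, which binds PDE3A, fell by 1.63 from 10.1 ± 1.48 to 2.92 ± 2.18 TPM. DISC1, a scaffold that binds PDE4, fell by 1.45, PAFAH1B1 by 1.08 (-0.53 and not called under median-ratio scaling), and ARRB1, an arrestin that carries PDE4D to receptors, rose by 1.04. AKAP5, which anchors PKA at the membrane, fell by 1.27. In U87, the arrestin ARRB2 fell by 1.24 and AKAP7 by 1.03 (-0.98 and -0.84, neither called, under median-ratio scaling), and AKAP3 rose by 1.25.

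The CREB group of 8 transcription factors and coactivators was tested whole in both lines, and in U118 the coactivator CREBBP alone was called, at 50.9 ± 7.45 TPM in control and 11.0 ± 0.423 TPM in aggregation libraries. It fell by 2.10 (limma adjusted p = 6.3e-05). In U87 none was called. Of 16 genes known as CREB targets, 10 were tested in each line. In U118, VGF, a secreted neuropeptide precursor, rose by 3.61, CCNA2 (cyclin A2) fell by 1.88, and BDNF fell by 1.03 (-0.56 and not called under median-ratio scaling). In U87, RGS2 and DUSP1 rose by 1.43 and 1.19, and NR4A1 and CCNA2 fell by 1.51 and 1.49. Neither of the 2 cAMP exporters (ABCC4, ABCC5) was called in a line. The medians of the lists in U118 were -0.56 (dual-substrate enzymes), -0.68 (G protein subunits), -0.38 (receptors), -0.57 (PKA), 0.61 (other effectors), -0.52 (anchoring proteins), -0.62 (partners), -0.80 (CREB group), 0.22 (CREB targets) and -0.09 (exporters), beside -0.52 for all genes. The 7 phosphodiesterases tested had a median of -1.05, which is a description only, since 3 of them passed the filter mainly through 1 group.

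**Figure D4:**
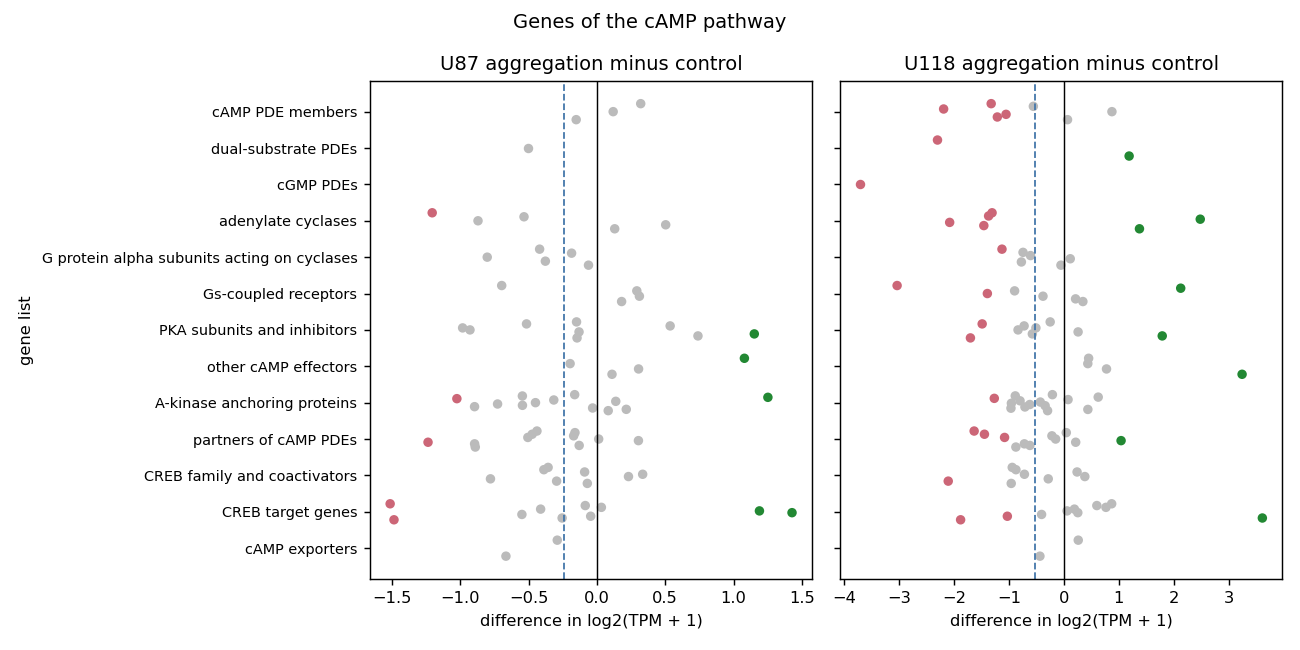
Difference in log2(TPM + 1) of each tested gene of the cAMP pathway lists in U87 (left) and U118 (right, wider axis), red where called lower, green where called higher and grey where not called, with a dashed line at the median of all genes (-0.24 and -0.52). Calls in both directions occur in the dual-substrate enzymes, cyclases, receptors, PKA genes, partners and CREB targets of U118. Differences reach -3.70 for PDE5A, of the cGMP enzymes, and 3.61 for VGF, of the CREB targets.

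Neighbouring protein-coding genes within 500000 bases of each member were also read. Of those tested in U118, PDE4B had 6, with 1 called higher and none lower. PDE7A had 2, with none called. PDE7B had 4, of which 3 were called lower (BCLAF1, MAP3K5 and MTFR2, named after their values were seen), and PDE3A had 1, SLCO1B3, called lower. PDE4D had 4, with 1 higher and none lower. Over all genes tested in U118, 26.6% were called lower and 8.64% higher. Under median-ratio scaling the share called lower over all genes was 12.9%. A shared change of neighbours was not tested.

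Exons of some members overlap those of genes on the other strand in GENCODE release 29, and the strand setting of the authors' counting is not given in the sources used here. Reads of PDE8B and of WDR41 (20.5 TPM in U87 control), of PDE7A and of MTFR1 (32.8 TPM in U118 control and 21.0 TPM in U118 aggregation) and of PDE7B and of the antisense gene AL138828.1 (11.8 and 12.7 TPM in these groups) can then not be told apart where they overlap. PDE3A, PDE4C and PDE4D overlap antisense or noncoding genes that were at 1.15 TPM or less in every group. For PDE4C this is AC005759.1, at means of 1.15 TPM in U118 control and 0.392 TPM in U118 aggregation. PDE4C itself was lower, at means of 0.567 and 0.175 TPM, and reads of this pair can likewise not be told apart where they overlap. Genes on the same strand that overlap PDE4C (AC008397.2) and PDE8B (AC022414.1) were not analysed here. No exon overlap was found for PDE3B, PDE4A, PDE4B and PDE8A.

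The genes whose pattern over the 12 libraries was most like that of PDE4B, by Pearson's r of log2(TPM + 1) among 16382 genes, were RNF115 (a ubiquitin ligase, r = 0.991), ZNF731P (a zinc finger pseudogene, r = 0.991) and ARSJ (a sulfatase family gene, r = 0.9905). The points share their cell line and group, and the r is a description. RNF115 was at 6.98 and 7.84 TPM in U87 control and aggregation and at 15.9 and 6.92 TPM in U118 control and aggregation, and ARSJ at 2.11, 3.18, 13.1 and 2.84 TPM, all as means. Reads of ZNF731P could be shared with its relatives.

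**Figure D5:**
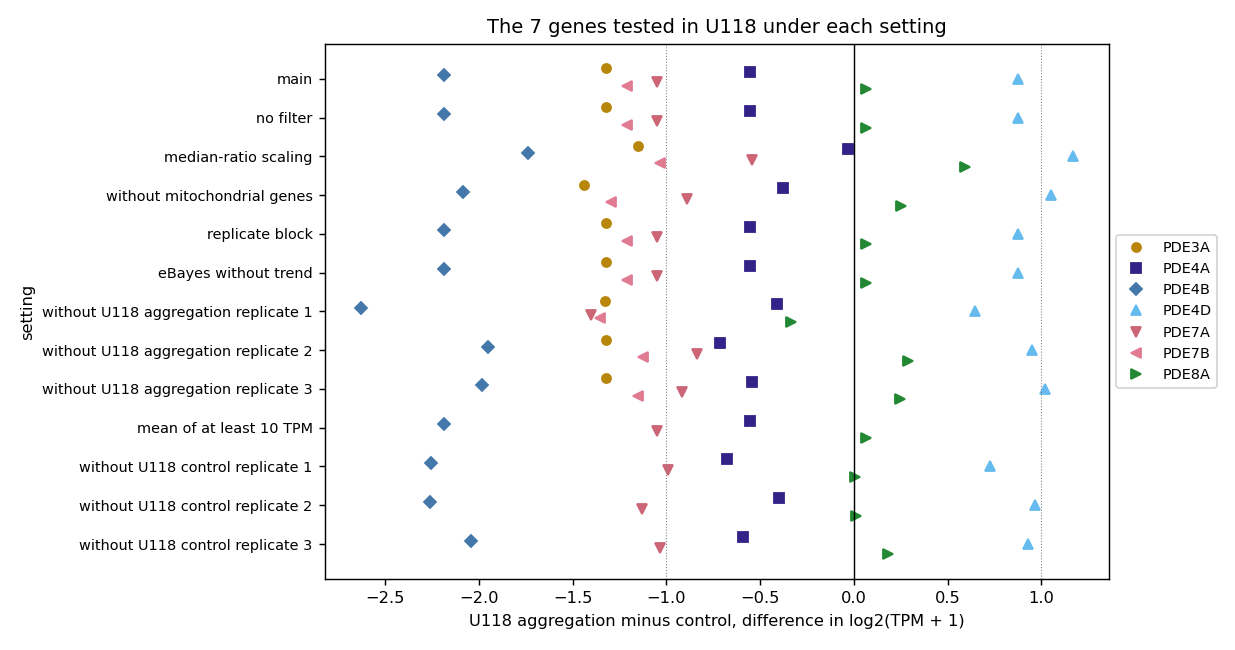
Difference in log2(TPM + 1) of the 7 genes tested in U118 under each setting other than the pseudocounts, with dotted lines at -1 and 1. PDE4B stays between -2.63 and -1.74, PDE4D stays above 0, and PDE8A crosses 0 when aggregation replicate 1 is left out (-0.34); PDE3A and PDE7B have no point where they fall below the filter.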

How the data were processed

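mRNA-seq libraries of control and aggregation cells of U87 and U118 (3 of each, 12 in all) were analysed from the values the authors deposited, as TPM per gene in a table for each line. The labels gave each library's group and number, and no column was left unmapped. The submitters' processing notes name FastQC 0.11.2, Trimmomatic 0.36, HISAT2 2.0, bedtools 2.26.0 and GRCh38, while the quantification tool, its annotation and strand setting are not given in the sources used here. TPM keeps no read counts, so depth is unknown and no counting interval was given. Of 58174 identifiers, 57392 had a symbol and 57836 are in GENCODE release 29 (GRCh38), whose positions are printed.

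Values were fitted as log2(TPM + 1) by lmFit and trended eBayes of limma 3.58.1 (R 4.3.3) in each line, for genes reaching 1 TPM in 3 libraries or more, and over all 12 libraries with an interaction. The fit was tested on simulated data. Tables and figures were made with Python 3.11.15, pandas 2.3.3 and matplotlib 3.10.9. The alternatives were pseudocounts of 0.1 and 0.01, no filter, a filter at a mean of 10 TPM, median-ratio scaling, TPM without mitochondrial genes, the replicate block, eBayes without trend, no fold threshold, and leaving out each library. Leaving out libraries for the cyclase ratio was chosen after seeing the data.

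The 10 members and the pathway and marker lists were chosen with earlier results of these data known. The genes named are the members, the called genes of each list and line (at most the 3 largest in each direction, of which the text gives a part, and 1 is not reported here), and the 3 genes most correlated with the member with the largest called change. Promoter sequences are from RefSeq.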

Additional observations from a re-analysis of the deposited data

Results flagged for a closer look

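By the limma interaction over 12 libraries, 5 of the 7 genes tested were called for a change on aggregation that differed between U118 and U87, 4 with a lower and 1 with a higher change in U118, beside 18.5% and 12% of all genes. The difference, U118 change minus U87 change in log2(TPM + 1), was -2.51 for PDE4B, -1.32 for PDE3A, -1.32 for PDE7B, -1.17 for PDE7A and 1.05 for PDE4D. In U118 every aggregation library was below every control for the first 4 and above for PDE4D, which held for 42.9% and 15.7% of all genes. The call of PDE7A was lost under median-ratio scaling (-0.94), with no filter (adjusted p = 0.0648) and without any of 8 single libraries. PDE3A and PDE7B reached 1 TPM only in the U118 control libraries, through which they entered the test, and PDE4D entered it mainly through U118 aggregation, so the count is not support for the group as a whole. In U87, PDE3A and PDE7B were at or near 0 in both groups, which left no room for a fall of that size. The groups of 3 libraries were too small for a test of single outlying libraries.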

How the results depend on the processing

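In U118 the 4 genes called lower became 3 with no filter, under median-ratio scaling or without mitochondrial genes. They became 2 under the filter at a mean of 10 TPM, and 1 to 4 when single libraries were left out. The gene called higher there, none in the comparison as reported, was 1 (PDE4D) with pseudocounts of 0.1 and 0.01, median-ratio scaling, no mitochondrial genes or no fold threshold, and 0 to 1 when single libraries were left out. For the difference between the lines, the 4 lower became 3 with no filter and 1 under the filter at a mean of 10 TPM. They became 2 under median-ratio scaling, where PDE7B fell below the filter and PDE7A (-0.94) short of the fold threshold. When single libraries were left out they were 1 to 4. The 1 higher became 0 under the filter at a mean of 10 TPM or with no filter, and 0 to 1 when single libraries were left out. In U87 no gene was called under any alternative tried.

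Signs turned for PDE7A in U87 without U87 control replicate 1 (-0.0439), PDE8A in U87 under median-ratio scaling (0.10), PDE8A in U118 and between the lines without U118 aggregation replicate 1 (-0.34 and -0.18), and PDE4A between the lines with pseudocounts of 0.1 and 0.01 (0.24 and 0.57) and median-ratio scaling (0.12), none of them called. When single libraries were left out the difference ranged from -0.0439 to 0.26 for PDE7A in U87, and for PDE8A from -0.34 to 0.29 in U118 and from -0.18 to 0.44 between the lines. The summed TPM was 42.1 in U87 aggregation and 85.2 in U118 control without mitochondrial genes, and 60.6 in U118 control under median-ratio scaling. The cause was not tested, other than the filter removing low genes.

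Same-numbered control and aggregation libraries did not deviate together in U87 (r of -0.07 to 0.01 across genes), and in U118 r was 0.05 to 0.14, under the limit set in 2 of 3 pairs, though each U118 control correlated best with its own number. With the replicate number as a block 4 genes were called lower in U118, 0 in U87 and 4 lower and 1 higher between the lines, as without it. The depth of the libraries is unknown, so a level of 0 has no detection limit.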
